A study of Oryza sativa with 44 samples.

Results

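The 10 genes described here are rice defence genes, not all of them specific to salicylic acid: the coactivator OsNPR1 (LOC_Os01g09800), the WRKY transcription factors WRKY45 (LOC_Os05g25770), WRKY62 (LOC_Os09g25070), WRKY76 (LOC_Os09g25060), WRKY71 (LOC_Os02g08440) and WRKY53 (LOC_Os05g27730), and the pathogenesis-related genes PR1b (LOC_Os01g28450), PR1a (LOC_Os07g03710), PBZ1 (LOC_Os12g36880) and PR10b (LOC_Os12g36850). They were chosen by locus ID, as a fixed list of names paired with MSU loci, and all 10 were found among the 58089 features of the deposited count table. The chromosome number is part of each ID, and no coordinates are given because no genome of the build used was at hand. For 5 of the 10 genes (OsNPR1, WRKY62, WRKY76, WRKY71 and PBZ1) the RefSeq gene table lists the name on the chromosome that the ID carries, and the other 5 names rest on the list alone.

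In plant immunity, salicylic acid rises after attack by pathogens that feed on living tissue, NPR1 proteins act as its coactivators, and WRKY factors bind a short DNA element called the W-box and turn defence genes on or off. In rice, OsNPR1 and WRKY45 lead branches of this pathway that are partly separate. The pathogenesis-related (PR) proteins are usual readouts of defence: PR1 proteins are secreted, PR10 proteins such as PBZ1, named after the plant activator probenazole, stay inside the cell. A change in a PR gene does not by itself show a change in salicylic acid, which was not measured.

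RNA was measured in 44 libraries of Oryza sativa seedlings kept in nutrient solution until 2 weeks of age. The 15 groups ask what loss or gain of a YTH gene does to gene expression. YTH proteins bind RNA that carries N6-methyladenosine. The wild types were NIP and DJ. In the NIP background stood the CRISPR knockouts osythdf1b, osythdf1c, osythdf2b, osythdf3b, osythdf3c, osythdf4c and osythdf5c, the knockdown lines RNAi-OsYTHDF2C and RNAi-OsYTHDC1A, and the overexpression line OE-OsYTHDF1A. In the DJ background stood the CRISPR knockouts osythdf1a, osythdf2a and osythdf3a. Each group had 3 libraries, except osythdf2a with 2. The promoters of the RNAi and overexpression constructs, the number of independent lines per genotype and any pooling of plants are not stated in the sources used here. YTH transcripts were not analysed here, so the labels were not checked against them. The series calls its replicates biological, and no pathogen or elicitor is named in the labels.

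Library totals ranged from 13541543 to 24099581 counts. Levels are given as CPM, counts scaled to the library total, which compare libraries; comparisons between genes use FPKM, which also divides by gene length. Lines were tested against the wild type of their own background with edgeR's quasi-likelihood test, and "rose", "fell" and "called" refer to a Benjamini-Hochberg adjusted p under 0.05 over all genes tested, with no minimum fold. Fold changes come from that fit, which scales libraries by TMM (a trimmed mean that takes most genes as unchanged). Scaling by library totals instead would shift the median of all genes by -0.25 to 0.31 on the log2 scale, and by 0.29 for DJ against NIP. Replicate 3 of osythdf3a stood apart, with 12.45% of its counts in 2 neighbouring loci against at most 3.577% in the other 43 libraries. Without it, no call of the 10 genes in osythdf3a was lost. In RNA from whole samples, fewer cells of a type and less RNA per cell cannot be told apart.

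All 10 genes passed the filter on low counts in the fits of both backgrounds, but most other genes moved too, so counts of calls are read against the share of all genes. Of the 130 pairs of a line and a gene, 60 rose, 47 fell and 23 did not pass the test, which makes 82.3% called, and 68 of the called pairs differed at least 2-fold. Among all genes tested, the share called in a line lay between 40.0% and 78.5% (median 68.7%). By CPM, the libraries of the line lay wholly above the wild type's in 61 pairs, wholly below in 47, and overlapped them in 22. The share of all genes at least 2-fold apart, or without overlap, was not counted. These numbers therefore describe the 10 genes and do not set them apart from other genes.

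The split between regulators and PR genes differed from line to line. In osythdf1b, 4 of the 10 genes rose and 6 fell, where 39.4% of all genes rose and 37.5% fell; all 4 PR genes were among the rises and all 5 WRKY genes among the falls. In osythdf3b, 7 rose and 2 fell, against 19.8% and 20.1% of all genes, and the rises included all 4 PR genes. The RNAi-OsYTHDC1A line had 7 rises and 2 falls (38.7% and 35.1% of all genes), with PR1a, PBZ1 and PR10b among the rises. In osythdf4c, 5 rose and 5 fell (35.6% and 31.2%), and of the PR genes PR1a alone rose while the other 3 fell. The PR1b and PR10b falls in osythdf4c, and the PR1b rise in osythdf3b, were lost when certain single libraries were left out. The line osythdf3c had 1 rise, PR1a, and 6 falls (41.8% and 36.7%), of which 4 were WRKY genes.

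For the remaining NIP lines the counts were mixed. In osythdf1c, 5 genes rose and 2 fell (34.9% and 33.8% of all genes), and in osythdf2b 6 rose and 2 fell (33.2% and 31.8%). RNAi-OsYTHDF2C had 5 rises and 3 falls (34.4% and 34.3%), osythdf5c had 3 rises and 5 falls (31.6% and 31%), and OE-OsYTHDF1A had 6 rises and 2 falls (32.1% and 31.2%). PBZ1 rose in all 5 of these lines. PR10b fell in osythdf1c, osythdf2b and osythdf5c, but each of these calls was lost without NIP replicate 2. In the DJ background no PR gene was called higher. Both osythdf1a (4 rises, 4 falls, against 37.5% and 39.5% of all genes) and osythdf3a (4 rises, 4 falls, against 35% and 37.2%) had falls in all 4 PR genes and in no other of the 10. In osythdf2a, 3 genes rose and 4 fell (20.9% and 30.9%), and 3 of the falls were PR genes. The 3 DJ lines share the DJ libraries as their reference. The 10 NIP lines likewise share the NIP libraries, so the counts of lines with a rise or fall are not independent.

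The wild types themselves differed in 9 of the 10 genes: 6 were higher in DJ, where 37.7% of all genes were higher, and 3 were lower, where 37.4% were lower. All 4 PR genes were higher in DJ. PBZ1 stood at 104.3 ± 0.32 CPM (SD, n = 3) in DJ and 7.01 ± 0.10 CPM (SD, n = 3) in NIP, and PR10b at 30.4 ± 1.2 and 1.13 ± 0.41 CPM. WRKY62 went the opposite way, with 0.305 ± 0.11 CPM in DJ and 1.79 ± 0.13 CPM in NIP. The DJ lines were thus measured against the group with the highest mean of PBZ1, PR10b and PR1b among all 15. The NIP lines were measured against a group that stood 13th of 15 in mean CPM of PBZ1 and 14th in PR1a. The DJ libraries enter both the comparison of the wild types and those of the DJ lines, so the directions are not independent of each other. The same holds for the NIP libraries and the NIP lines. Sequence differences between DJ and the genome used for counting were not analysed.

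**Figure D1:**
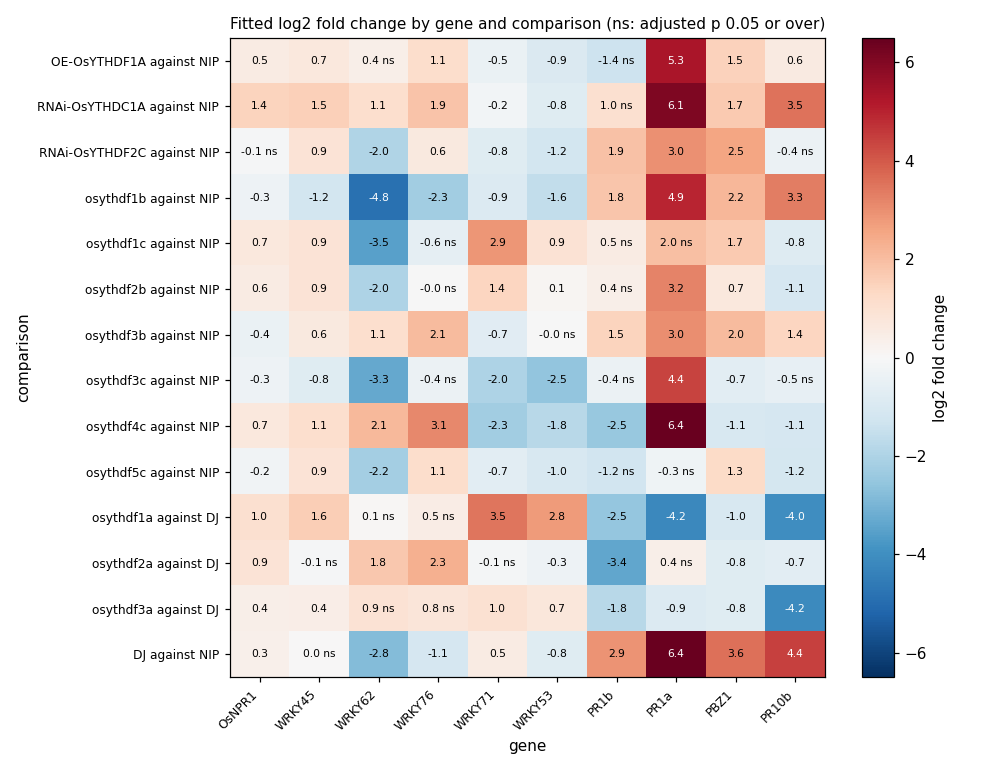
Fitted log2 fold change of each of the 10 genes (columns) in each of the 14 comparisons (rows), with red for higher and blue for lower than the wild type; ns marks an adjusted p of 0.05 or over. PR1a and PBZ1 were called higher in 8 of the 10 NIP lines each, and no PR gene was called higher in a DJ line; the PR1a values against NIP rest on 2 counts in NIP and depend on the fit's prior count.

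OsNPR1, the salicylic acid coactivator, was expressed in every library and moved least among the 10 genes. Its group means ran from 10.1 ± 0.45 CPM (SD, n = 3) in osythdf3b to 47.6 ± 1.0 CPM (SD, n = 3) in RNAi-OsYTHDC1A, a ratio of 4.74. In NIP the libraries held 14.5, 14.7 and 13.6 CPM, and in RNAi-OsYTHDC1A 46.5, 48.1 and 48.4 CPM. The RNAi-OsYTHDC1A libraries were all above NIP, with a log2 fold change of 1.43 (SE of 0.07, adjusted p = 2.2e-28). In DJ the libraries held 20.9, 21.8 and 23.4 CPM, against 37.4, 38.0 and 37.4 CPM in osythdf1a and 43.8 and 43.7 CPM in osythdf2a. The groups did not overlap, and the log2 fold changes were 1.02 (SE of 0.06, adjusted p = 1.4e-21) and 0.89 (SE of 0.07, adjusted p = 8.9e-17).

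Over the 13 lines OsNPR1 rose in 8, fell in 4 and was not called in RNAi-OsYTHDF2C. The falls were small, from -0.22 in osythdf5c to -0.43 in osythdf3b on the log2 scale. With library totals in place of TMM, OsNPR1 was no longer called in osythdf3c (-0.06, adjusted p = 0.49) and osythdf1b (-0.07, adjusted p = 0.43), nor in osythdf3a (0.12, adjusted p = 0.20). The osythdf5c call was lost without replicate 1 of osythdf5c (-0.14, adjusted p = 0.20) and without NIP replicate 1 (adjusted p = 0.059) or 2 (adjusted p = 0.062). In the order of the 15 group means of CPM, the top 3 (RNAi-OsYTHDC1A, osythdf2a, osythdf1a) were each apart from the next. Scaled by TMM, osythdf1a (39.9) stood above osythdf2a (36.45), as in the fold changes. By CPM, 8 of the 14 neighbouring pairs overlapped, among them osythdf5c, osythdf1b, osythdf3c and NIP.

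WRKY45, an activator that rice needs for resistance induced by plant activators of the salicylic acid pathway, rose in 10 of the 13 lines, the most of any of the 10 genes. The NIP libraries, the shared reference of 8 of these rises, held 8.36, 9.61 and 11.1 CPM. The highest group was again RNAi-OsYTHDC1A, at 36.6, 34.5 and 33.1 CPM, which gives a log2 fold change of 1.53 (SE of 0.08, adjusted p = 2.7e-26). In osythdf1a, at 31.3, 29.3 and 31.5 CPM against 12.1, 12.9 and 11 CPM in DJ, it was 1.60 (SE of 0.08, adjusted p = 2.2e-25). Neither line's libraries overlapped its wild type's.

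WRKY45 fell in 2 lines. In osythdf1b it stood at 5.47, 5.18 and 4.38 CPM, all below NIP (log2 fold change -1.19, SE of 0.11, adjusted p = 1.3e-15), and in osythdf3c at 6.60, 7.38 and 6.80 CPM (-0.76, SE of 0.10, adjusted p = 7.6e-10). The 8 NIP lines with a rise ranged from 0.63 in osythdf3b to 1.53 on the log2 scale. DJ and NIP were not called different (0.02, adjusted p = 0.86), but scaling by library totals made DJ higher (0.31, adjusted p = 0.0016) and ended the osythdf3a call (0.19, adjusted p = 0.083). Per length, WRKY45 and OsNPR1 were close in level, with medians over the 15 group means of 9.28 and 9.46 FPKM, and WRKY53 at 33.1 FPKM was the most abundant of the WRKY genes.

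**Figure D2:**
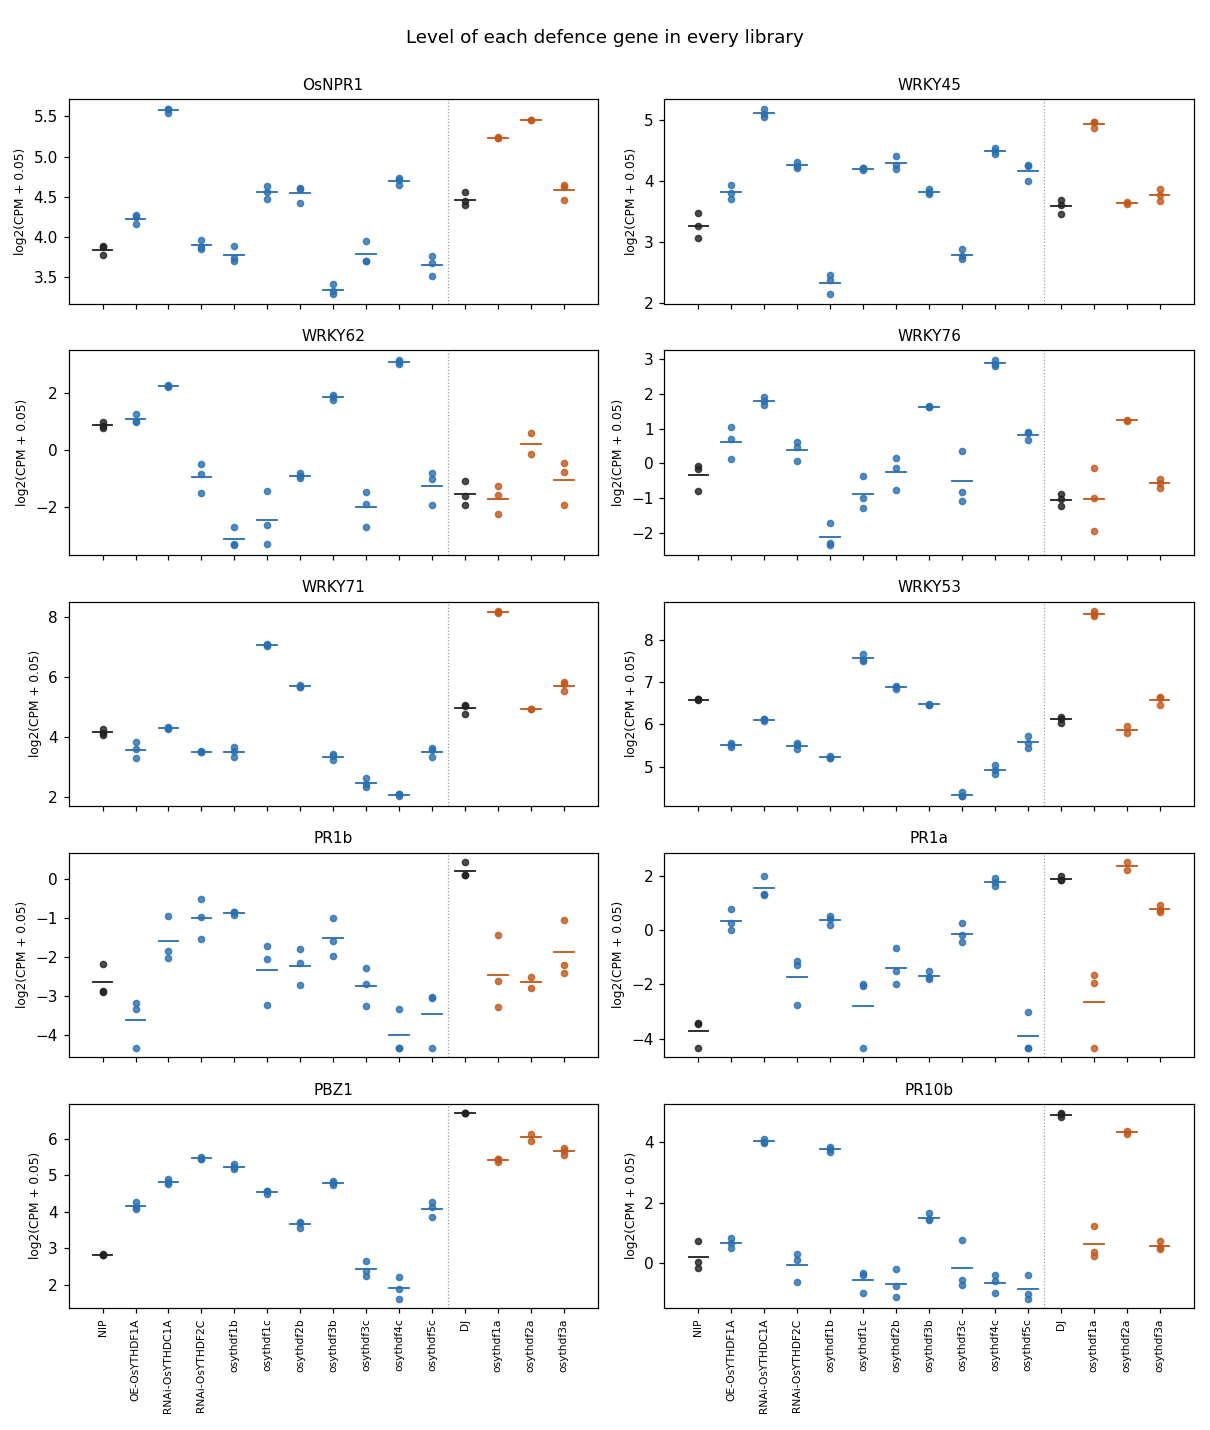
Level of each gene in every library, as log2(CPM + 0.05), by group; points are libraries, short lines the group means, black the wild types, blue the lines in NIP and orange the lines in DJ. OsNPR1 and WRKY45 peak in RNAi-OsYTHDC1A, WRKY62 and WRKY76 in osythdf4c, WRKY71 and WRKY53 in osythdf1a, and PBZ1 and PR10b in the DJ wild type.

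WRKY62 and WRKY76 are close relatives that lie side by side on chromosome 9, and in rice both lower resistance when overexpressed. The highest group mean exceeded the lowest 127-fold for WRKY62 and 40.0-fold for WRKY76, and in both cases the highest group was osythdf4c and the lowest osythdf1b. Both were at low levels, with medians over groups of 0.331 and 0.494 FPKM and as few as 1 and 3 counts in a library. How the counting treated reads shared by such relatives is not stated in the sources used here.

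WRKY62 was at 1.68, 1.94 and 1.76 CPM in NIP. It reached 8.48, 9.03 and 8.05 CPM in osythdf4c, 4.71, 4.87 and 4.59 CPM in RNAi-OsYTHDC1A and 3.82, 3.63 and 3.32 CPM in osythdf3b. These 3 groups lay above every NIP library, and the log2 fold changes were 2.09 (SE of 0.16, adjusted p = 3.2e-18), 1.08 (SE of 0.17, adjusted p = 6.8e-08) and 1.08 (SE of 0.17, adjusted p = 6.0e-07). In osythdf1b it was at 0.102, 0.0508 and 0.0482 CPM, far below NIP (log2 fold change -4.85, SE of 0.40, adjusted p = 5.4e-17).

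Of the 10 NIP lines, WRKY62 fell in 6: besides osythdf1b, in osythdf1c (-3.54), osythdf3c (-3.31), osythdf5c (-2.19), osythdf2b (-2.02) and RNAi-OsYTHDF2C (-1.97). The osythdf1c change ranged from -4.41 to -3.09 when 1 library of either group was left out. In the DJ background WRKY62 rose in osythdf2a, at 1.46 and 0.856 CPM against 0.427, 0.274 and 0.215 CPM in DJ (log2 fold change 1.78, SE of 0.47, adjusted p = 0.0013). That call was lost without replicate 1 of osythdf2a (1.39, adjusted p = 0.062), when osythdf2a had 1 library, assumed to vary like the others. In osythdf3a WRKY62 was called only without replicate 3 (1.17, adjusted p = 0.042, against 0.93, adjusted p = 0.096 with it).

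WRKY76 followed in the same groups. It stood at 0.840, 0.905 and 0.528 CPM in NIP and at 7.27, 7.87 and 6.95 CPM in osythdf4c, where the libraries were all above NIP (log2 fold change 3.12, SE of 0.21, adjusted p = 2.9e-20). It was at 3.11, 3.03 and 3.03 CPM in osythdf3b (2.08, SE of 0.24, adjusted p = 4.5e-11) and at 3.19, 3.45 and 3.70 CPM in RNAi-OsYTHDC1A (1.86, SE of 0.23, adjusted p = 2.5e-10). Its only called fall over the 13 lines was in osythdf1b, at 0.153, 0.254 and 0.145 CPM (-2.25, SE of 0.43, adjusted p = 5.5e-06).

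The 2 relatives did not always move together. In osythdf5c WRKY62 fell while WRKY76 rose, to 1.56, 1.77 and 1.83 CPM (log2 fold change 1.15, SE of 0.28, adjusted p = 3.8e-04). RNAi-OsYTHDF2C showed the same split, but its WRKY76 rise (0.62, adjusted p = 0.047) was lost without any of 4 of the 6 libraries: without RNAi-OsYTHDF2C replicate 2 (adjusted p = 0.17) or 3 (0.11) and without NIP replicate 1 (0.052) or 3 (0.22). In osythdf3c, osythdf1c and osythdf2b WRKY62 fell and WRKY76 was not called. WRKY76 in osythdf3c was called lower without its replicate 1 (-0.97, adjusted p = 0.018), and in osythdf1c without its replicate 3 (-0.95, adjusted p = 0.047). In osythdf2a WRKY76 rose with WRKY62, at 2.34 and 2.28 CPM against 0.488, 0.439 and 0.377 CPM in DJ (2.30, SE of 0.37, adjusted p = 6.1e-07). Over the 15 group means, WRKY62 and WRKY76 had a Pearson r of 0.889 and a Spearman rho of 0.889, given as a description, since the groups share wild type backgrounds and the genes share a neighbourhood.

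WRKY71 and WRKY53 respond to elicitors in rice. WRKY71 belongs to the same WRKY subgroup as WRKY62 and WRKY76 and is also known as a repressor of gibberellin signalling in the grain, and WRKY53 favours blast resistance and acts in brassinosteroid signalling. In these seedlings both were highest in osythdf1a and next highest in osythdf1c. WRKY71 was at 33.3, 33 and 27 CPM in DJ and at 297, 289 and 283 CPM in osythdf1a, a log2 fold change of 3.47 (SE of 0.05, adjusted p = 1.2e-25). It was at 17.3, 19.3 and 16.8 CPM in NIP and at 138, 134 and 131 CPM in osythdf1c (2.88, SE of 0.06, adjusted p = 2.1e-44). Every library of these lines lay above every library of its wild type.

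WRKY53 did the same on a higher base. It was at 72.6, 69.7 and 65.5 CPM in DJ and at 412, 391 and 380 CPM in osythdf1a (log2 fold change 2.76, SE of 0.04, adjusted p = 3.9e-43). In NIP it was at 94.7, 96.9 and 96.2 CPM, and in osythdf1c at 182, 203 and 183 CPM (0.95, SE of 0.05, adjusted p = 9.0e-27). Both genes also rose in osythdf3a, by 1.01 for WRKY71 and 0.72 for WRKY53 on the log2 scale (1.04 and 0.71 without replicate 3), and in osythdf2b, by 1.39 and 0.15.

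In 7 NIP lines both genes were called lower than in the wild type. WRKY71 fell most in osythdf4c, to 4.18, 3.96 and 4.22 CPM (log2 fold change -2.26, SE of 0.10, adjusted p = 2.5e-28), and in osythdf3c, to 5.33, 6.16 and 4.95 CPM (-1.98, SE of 0.10, adjusted p = 2.7e-27). For WRKY53 the same lines were lowest, in the other order. It stood at 19.7, 19.5 and 20.9 CPM in osythdf3c (-2.54, SE of 0.06, adjusted p = 1.4e-44) and at 28.1, 32.7 and 30.1 CPM in osythdf4c (-1.81, SE of 0.05, adjusted p = 1.3e-37). The other lines in which both were lower were osythdf1b, osythdf5c, RNAi-OsYTHDF2C, OE-OsYTHDF1A and RNAi-OsYTHDC1A. For RNAi-OsYTHDC1A this holds for WRKY71 only with TMM: -0.17 (adjusted p = 0.035), but 0.14 (adjusted p = 0.084) by library totals. By CPM, every WRKY71 library of that line (19.35 to 19.93) lay above every NIP library (16.81 to 19.3). The call was also lost without NIP replicate 2 (-0.12, adjusted p = 0.21) or RNAi-OsYTHDC1A replicate 1 (adjusted p = 0.063) or 2 (adjusted p = 0.082). In osythdf2a WRKY71 was not called (-0.11), but it was lower without DJ replicate 3 (-0.21, adjusted p = 0.0018). In osythdf3b WRKY71 fell (-0.74, adjusted p = 3.6e-11) and WRKY53 was not called (-0.04), although library totals called it lower (-0.11, adjusted p = 0.043).

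Over the 15 group means WRKY71 and WRKY53 had a Pearson r of 0.911 and a Spearman rho of 0.846, the highest r of any pair among the 10 genes, again as a description with no test. For each of them, 9 of the 14 neighbouring pairs of groups in the order of mean CPM did not overlap, a number not counted for all genes. WRKY76 and WRKY71 had an r of -0.48: osythdf4c held the highest WRKY76 and the lowest WRKY71.

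**Figure D3:**
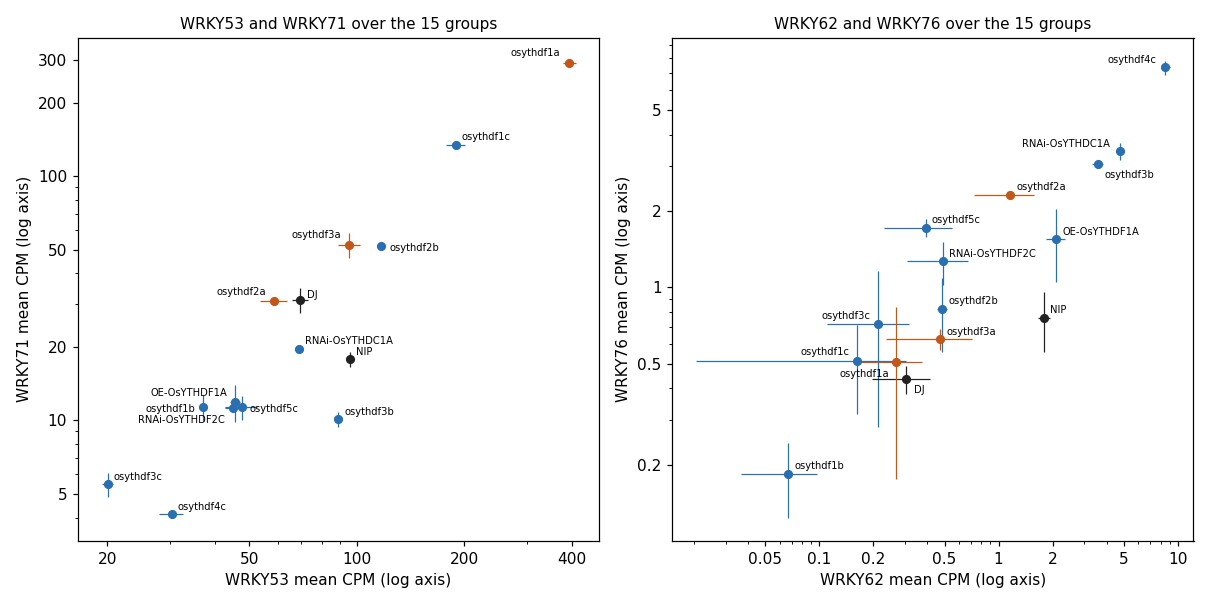
Mean CPM (log axes) of WRKY71 against WRKY53 (left) and of WRKY76 against WRKY62 (right) in the 15 groups; bars are the SD over the libraries of a group, black marks wild types, blue the NIP lines and orange the DJ lines. In the left panel osythdf1a and osythdf1c stand at the top right, and in the right panel osythdf4c stands at the top right and osythdf1b at the bottom left.

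PR1a, a secreted PR protein of the class most used as a salicylic acid marker, was almost off in NIP, with 0.0420, 0 and 0.0440 CPM, or 2 counts over the group. In osythdf4c it was at 3.33, 3.01 and 3.67 CPM and in RNAi-OsYTHDC1A at 2.38, 2.48 and 3.95 CPM. The libraries of both lines were all far above NIP. As NIP has so few counts, the fold is given as a ratio of CPM with an exact 95% interval for counting error only: 116 (31.8 to 969) in osythdf4c and 102 (27.8 to 846) in RNAi-OsYTHDC1A. The adjusted p were 5.0e-18 and 1.2e-16.

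PR1a rose in 8 of the 10 NIP lines and fell in none. The ratio was 43.6 (11.7 to 366) in osythdf1b, 43.1 (11.5 to 363) in OE-OsYTHDF1A and 30.9 (8.12 to 262) in osythdf3c. The remaining rises were smaller, at 12.3 (2.97 to 109) in osythdf2b, 9.99 (2.37 to 89.1) in RNAi-OsYTHDF2C and 9.12 (2.16 to 81.4) in osythdf3b. In osythdf1c, with 0.204, 0.192 and 0 CPM, it was not called (adjusted p = 0.084), though it was without replicate 3 of that line (adjusted p = 0.022), and osythdf5c had 0, 0.0738 and 0 CPM.

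In DJ the libraries held 3.54, 3.95 and 3.50 CPM of PR1a. It was at 0.270, 0.208 and 0 CPM in osythdf1a, wholly below DJ (log2 fold change -4.20, SE of 0.35, adjusted p = 9.8e-16), and at 1.61, 1.52 and 1.82 CPM in osythdf3a (-0.91, SE of 0.22, adjusted p = 2.7e-04; -1.03 without replicate 3). The osythdf2a libraries, at 5.63 and 4.61 CPM, were above DJ, with a log2 fold change of 0.37 that was not called (adjusted p = 0.12) and was called by library totals (0.47, adjusted p = 0.048). DJ against NIP gave a ratio of 128 (34.9 to 1060), with an adjusted p of 1.0e-20.

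PR1a is the single gene of the 10 in the class that was on in DJ and off in NIP, a class of 504 genes if on means at least 1 CPM in every library and off at most 3 counts in every library. Of these 504 genes, 282 were on in RNAi-OsYTHDC1A, 265 in osythdf1b, 247 in osythdf3c and 141 in osythdf4c, although all 4 lines are labelled NIP. In the other 6 NIP lines, 35 to 57 were on. Among them OE-OsYTHDF1A had 44 on, with PR1a at a mean of 1.25 CPM, the same as in osythdf1b. By this rule PR1a itself was not on in osythdf3c (lowest library 0.685 CPM) or OE-OsYTHDF1A (lowest library 0.958 CPM). Genes on in NIP and off in DJ were not counted. Among the DJ lines, 401 were on in osythdf2a, which has 2 libraries and meets the criterion more easily, 176 in osythdf3a and 152 in osythdf1a. The part of these shared differences in the PR1a levels was not tested.

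PR1b, a second gene of the PR1 class, was the scarcest of the 10, with 0 to 24 counts in a library. DJ was highest, at 1.04, 1.32 and 1.02 CPM against 0.0840, 0.172 and 0.0880 CPM in NIP, a log2 fold change of 2.94 (SE of 0.48, adjusted p = 1.2e-07). It fell in all 3 DJ lines, with log2 fold changes of -3.38 in osythdf2a (SE of 0.61, adjusted p = 6.7e-06), -2.50 in osythdf1a (SE of 0.50, adjusted p = 1.3e-05) and -1.82 in osythdf3a (SE of 0.46, adjusted p = 3.9e-04; -1.64 without replicate 3). No library of these lines reached the lowest DJ library, though the osythdf1a value ranged from -3.45 to -2.07 and the osythdf3a value from -2.53 to -1.56 when 1 library was left out.

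In the NIP background PR1b rose in RNAi-OsYTHDF2C, at 0.298, 0.658 and 0.461 CPM (log2 fold change 1.88, SE of 0.55, adjusted p = 0.0022), and in osythdf1b, at 0.511, 0.508 and 0.482 CPM (1.83, SE of 0.55, adjusted p = 0.0022). It was also called higher in osythdf3b (1.45, adjusted p = 0.044) and lower in osythdf4c, which had 1 count over the group against 8 in NIP (6.49-fold lower, exact 95% interval 0.870 to 288, adjusted p = 0.042). Neither of these calls held under DESeq2 (adjusted p = 0.11 and 0.077). Each was lost when single libraries were left out: in osythdf3b without NIP replicate 1 or 3 or osythdf3b replicate 2 or 3 (1.12 to 1.51, adjusted p = 0.066 to 0.21), and in osythdf4c without NIP replicate 2 or osythdf4c replicate 1 or 2 (-2.08 to -1.98, adjusted p = 0.11 to 0.14). Without osythdf4c replicate 3, which holds that line's only count, the fitted PR1b value was -4.32 (adjusted p = 0.020), which depends on the prior count. In the other 6 NIP lines no difference was detectable at this depth. In RNAi-OsYTHDC1A (1.04, adjusted p = 0.11) library totals made it a call (1.34, adjusted p = 0.037). Of the 14 neighbouring pairs in the order of groups, 13 overlapped, so that beyond DJ at the top PR1b gave little order.

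PBZ1, the probenazole-induced PR10 protein, was the most abundant PR gene of the 4, with a median over groups of 27.9 FPKM against 1.75 FPKM for PR10b, 0.946 for PR1a and 0.203 for PR1b. It was called in all 13 lines. Its replicates were tight: 6.97, 6.93 and 7.13 CPM in NIP and 104 CPM in each library of DJ. DJ was 12.1-fold higher than NIP (log2 fold change 3.60, SE of 0.07, adjusted p = 5.8e-57).

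PBZ1 rose in 8 of the 10 NIP lines. The highest was RNAi-OsYTHDF2C, at 43.7, 43.3 and 45.4 CPM (log2 fold change 2.55, SE of 0.08, adjusted p = 1.0e-35), then osythdf1b, at 35.8, 39.9 and 37.3 CPM (2.18, SE of 0.08, adjusted p = 3.1e-32), and osythdf3b, at 27.5, 28.6 and 26.3 CPM (2.04, SE of 0.09, adjusted p = 3.6e-29). The other rises ran from 0.70 in osythdf2b to 1.70 in RNAi-OsYTHDC1A. It fell in osythdf4c, to 3.63, 3.01 and 4.57 CPM (-1.06, SE of 0.13, adjusted p = 8.6e-11), and in osythdf3c, to 4.66, 6.27 and 5.15 CPM (-0.67, SE of 0.12, adjusted p = 8.8e-07), both wholly below NIP. PR1a rose in both of these lines, while PR1b was called lower in osythdf4c and not called in osythdf3c.

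In the DJ background PBZ1 fell in each line, with log2 fold changes of -1.03 in osythdf1a (SE of 0.04), -0.79 in osythdf3a (SE of 0.04; -0.80 without replicate 3) and -0.77 in osythdf2a (SE of 0.05), the largest adjusted p being 8.4e-20. The libraries held 43.6, 43.9 and 41.2 CPM in osythdf1a, 53.3, 51.0 and 46.7 CPM in osythdf3a and 70.0 and 61.5 CPM in osythdf2a. By CPM the ranges of the 3 lines did not overlap each other. Scaled by TMM, those of osythdf3a (50.58 to 53.61) and osythdf2a (51.35 to 58.28) did. The differences between the lines were not tested. All stayed below DJ and above every library of the NIP wild type. In the order of the 15 groups by CPM, 11 of 14 neighbouring pairs did not overlap, the most among the 10 genes. Such pairs were not counted for all genes or with TMM, so this does not set PBZ1 apart from other genes.

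PR10b is encoded near PBZ1 on chromosome 12, and reads of PR10 relatives may be shared in the counts. It divided the groups more sharply. DJ was at 29.0, 31.5 and 30.6 CPM, osythdf2a at 19.4 and 20.8, RNAi-OsYTHDC1A at 16.1, 17.4 and 15.7, and osythdf1b at 12.7, 13.7 and 14.4 CPM. Every other group stayed under 4 CPM in each library. The NIP libraries were at 0.966, 1.59 and 0.836 CPM, so that RNAi-OsYTHDC1A was 11.6-fold higher (log2 fold change 3.54, SE of 0.17, adjusted p = 4.5e-27) and osythdf1b 10.1-fold higher (3.34, SE of 0.18, adjusted p = 1.5e-25).

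In the DJ background PR10b was at 1.13, 1.25 and 2.31 CPM in osythdf1a and at 1.31, 1.41 and 1.61 CPM in osythdf3a. These levels are near those of the NIP wild type and far under DJ: 16.4-fold lower in osythdf1a (log2 fold change -4.04, SE of 0.13, adjusted p = 1.3e-32) and 17.9-fold lower in osythdf3a (-4.16, SE of 0.14, adjusted p = 2.5e-32; -4.28 without replicate 3). In osythdf2a the fall was small (-0.69, SE of 0.09, adjusted p = 1.9e-08). The PBZ1 falls in the same lines were -1.03, -0.79 and -0.77, in the order osythdf1a, osythdf3a and osythdf2a.

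Among the other NIP lines PR10b rose in osythdf3b, to 3.07, 2.67 and 2.65 CPM (log2 fold change 1.38, SE of 0.22, adjusted p = 4.7e-07). The small rise in OE-OsYTHDF1A (0.59, adjusted p = 0.044) was lost by library totals (0.45, adjusted p = 0.13) and without either NIP replicate 1 or 3 or OE-OsYTHDF1A replicate 1 or 3 (adjusted p = 0.071 to 0.19). It fell in osythdf5c (-1.16, adjusted p = 0.0041), osythdf2b (-1.11, adjusted p = 0.0024), osythdf4c (-1.10, adjusted p = 0.0021) and osythdf1c (-0.84, adjusted p = 0.017). All 4 falls rest on NIP replicate 2, the highest NIP library. Without it the values were -0.84 (adjusted p = 0.063), -0.79 (0.056), -0.78 (0.054) and -0.52 (0.20), and the osythdf1c fall was also lost without its own replicate 2 (-0.67, adjusted p = 0.083). In osythdf3c the fall was called only without that line's replicate 3 (-1.20, adjusted p = 9.3e-04) or without NIP replicate 3 (-0.70, adjusted p = 0.035).

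Over the 15 group means, pairs of PR genes had Pearson r of 0.657 (PR1b and PBZ1), 0.638 (PR1a and PR10b) and 0.601 (PBZ1 and PR10b), and PR1b and PR1a 0.151. PR1b and PR10b had 0.589, and PR1a and PBZ1 0.178. The 24 pairs of a PR gene with OsNPR1 or a WRKY gene ran from -0.462 (WRKY53 and PR1a) to 0.478 (WRKY71 and PBZ1), with 0.421 for OsNPR1 and PR1a and -0.416 for WRKY76 and PR1b. OsNPR1 and WRKY45 with each other had 0.577. These describe 15 points from 1 count table and carry no test. They were taken on TMM-scaled log2(CPM + 0.5), and only DJ had a TMM-scaled PR1b mean over 0.5 CPM.

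Other defence genes were counted over lists of loci written from general knowledge. The sources used here do not name these IDs, so they are given as counts. Of 20 other WRKY loci, 14 rose and 2 fell in osythdf1a (median log2 fold change 1.34, against -0.02 over all genes) and 14 rose and 2 fell in osythdf1c (0.84, against 0.01), the lines highest in WRKY71 and WRKY53. Of all genes, 37.5% rose and 39.5% fell in osythdf1a, and 34.9% and 33.8% in osythdf1c. In osythdf4c 1 rose and 13 fell (median -0.77, against 0.04), in osythdf5c 3 rose and 13 fell (-0.73, against 0.00) and in osythdf3c 2 rose and 12 fell (-0.78, against 0.07). Of all genes, 35.6% rose and 31.2% fell in osythdf4c, 31.6% and 31% in osythdf5c, and 41.8% and 36.7% in osythdf3c. In the remaining lines 1 to 9 of the 20 rose and 2 to 10 fell, where 19.8% to 39.4% of all genes rose and 20.1% to 37.5% fell.

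Other PR loci were split in some lines and moved mostly one way in others. Of the 14 tested between the wild types, 11 were higher and 1 lower in DJ, with a median log2 fold change of 2.46 against 0.01 over all genes. Of all genes, 37.7% were higher and 37.4% lower. Of 13 tested in the DJ lines, none rose and 13 fell in osythdf1a (median -1.96, against -0.02), 2 rose and 10 fell in osythdf3a (-0.55, against -0.02), and 6 rose and 5 fell in osythdf2a (-0.24, against -0.07). In the same order, 37.5%, 35% and 20.9% of all genes rose and 39.5%, 37.2% and 30.9% fell. In RNAi-OsYTHDC1A 11 rose and 1 fell (median 2.35, against 0.04), in RNAi-OsYTHDF2C 11 and 1 (1.54, against 0.00), and in osythdf1b 10 and 1 (1.31, against 0.03). In osythdf3b the other PR loci were split, with 4 rises and 5 falls (-0.17, against 0.00). There PR1a, PBZ1 and PR10b rose, and the PR1b rise was lost when certain single libraries were left out. In osythdf4c 9 rose and 2 fell (0.66, against 0.04). There PBZ1 fell, and the PR1b and PR10b falls were lost when certain single libraries were left out. In osythdf3c, where PBZ1 fell and PR1a rose, 9 of the other PR loci rose and 4 fell (0.79, against 0.07). For osythdf1c the counts were 8 and 2 (1.22, against 0.01) and for osythdf2b 8 and 2 (0.53, against 0.02). OE-OsYTHDF1A had 5 and 4 (0.11, against 0.01) and osythdf5c 3 and 3 (-0.40, against 0.00). Over the NIP lines, 19.8% (osythdf3b) to 41.8% (osythdf3c) of all genes rose, and 20.1% (osythdf3b) to 37.5% (osythdf1b) fell.

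Of 12 loci for immune signalling, 9 rose and 2 fell both in osythdf1a (median log2 fold change 0.68, against -0.02 over all genes) and in osythdf3a (0.32, against -0.02), and 7 rose and 3 fell in osythdf1c (0.38, against 0.01). In the same order, 37.5%, 35% and 34.9% of all genes rose and 39.5%, 37.2% and 33.8% fell. In osythdf2b 6 rose and 3 fell, in OE-OsYTHDF1A 6 and 2, and in osythdf3b 4 and 2, with medians of 0.04, 0.22 and 0.03. There 33.2%, 32.1% and 19.8% of all genes rose and 31.8%, 31.2% and 20.1% fell. Falls outnumbered rises in osythdf3c, with 1 rise and 9 falls (-0.23, against 0.07), osythdf1b with 3 and 7 (-0.22, against 0.03), osythdf4c with 2 and 7 (-0.19, against 0.04) and osythdf2a with 2 and 5 (-0.12, against -0.07). In the first 3 of these lines 41.8%, 39.4% and 35.6% of all genes rose and 36.7%, 37.5% and 31.2% fell. In osythdf2a falls outnumbered rises among all genes too (30.9% against 20.9%). The counts were 5 and 5 in each RNAi line and 4 and 5 in osythdf5c, with medians from -0.04 to 0.00. Among all genes 38.7% rose and 35.1% fell in RNAi-OsYTHDC1A, 34.4% and 34.3% in RNAi-OsYTHDF2C, and 31.6% and 31% in osythdf5c. Between the wild types, 2 were higher and 6 lower in DJ (-0.12, against 0.01), where 37.7% of all genes were higher and 37.4% lower.

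The loci most like each gene over the 15 group means were found by Pearson r of log2(CPM + 0.5), here scaled by TMM. WRKY71 was most like LOC_Os01g61080 (r = 0.98), a locus of the other WRKY list, and LOC_Os05g41780 (0.974). LOC_Os01g61080 stood at 40.7 ± 3.2 CPM (SD, n = 3) in osythdf1a, 27.1 ± 2.5 CPM in osythdf1c, 3.58 ± 0.60 CPM in DJ and 2.74 ± 0.57 CPM in NIP. WRKY53 was most like LOC_Os08g41470 (0.97) and LOC_Os08g15650 (0.96). PR10b was most like LOC_Os04g09920 (0.972) and LOC_Os02g36140 (0.94), PR1a like LOC_Os07g04810 (0.934) and LOC_Os01g50360 (0.905), WRKY62 like LOC_Os10g39300 (0.918) and LOC_Os03g14000 (0.907), and OsNPR1 like LOC_Os06g08350 (0.9) and LOC_Os08g16050 (0.881). WRKY76 was most like LOC_Os05g30500 (0.899), with WRKY62 itself next. The other 3 genes had no locus over 0.87: PBZ1 reached 0.863 with LOC_Os04g36730 and 0.849 with LOC_Os01g70540, WRKY45 0.82 with LOC_Os10g35920 and 0.819 with LOC_Os03g03034, and PR1b 0.79 with LOC_Os01g56960 and 0.774 with LOC_Os03g40080. The most alike of 28833 loci are high by selection, so these are names and not evidence of a link.

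Near PBZ1 and PR10b, loci with nearby IDs went both ways between the wild types. Of 5 tested near PBZ1, 1 was higher and 3 lower in DJ, and of 4 near PR10b, 1 and 2. Of all genes, 37.7% were higher and 37.4% lower. In osythdf3b, 3 of the 5 near PBZ1 rose and 0 fell, against 19.8% and 20.1% of all genes. LOC_Os12g36890, picked after its values were seen, stood at 28.6 ± 0.70 CPM (SD, n = 3) in DJ and 0.316 ± 0.14 CPM in NIP. It was at 30.9 ± 1.5 CPM in osythdf3c, where PR10b was not called and PBZ1 fell, and at 0.0922 ± 0.086 CPM in osythdf1a, where both fell. It was at 16.7 ± 1.0 CPM in RNAi-OsYTHDC1A, 16.1 ± 0.30 CPM in osythdf1b, 13.6 ± 0.30 CPM (SD, n = 2) in osythdf2a, where PBZ1 and PR10b fell, and 12.8 ± 0.76 CPM in osythdf4c. The other groups had 0.427 to 2.44 CPM. LOC_Os12g36860, likewise picked afterwards, was lower in DJ (1.96 ± 0.51 CPM) than in NIP (4.62 ± 0.90 CPM) and highest in osythdf3b, at 7.81 ± 0.24 CPM.

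Since the labels do not name the organ, 8 loci taken as shoot markers and 6 taken as root markers, from general knowledge, were summed in every library. The shoot sum ranged from 9479 to 10380 CPM in osythdf3c and from 68440 to 71380 CPM in OE-OsYTHDF1A, with 35400 to 37100 CPM in NIP and 21890 to 22190 CPM in DJ. The root sum was 20.5 to 21.1 CPM in NIP, 85.42 to 92.25 CPM in DJ, 341 to 349 CPM in osythdf4c and 517.5 to 551.2 CPM in osythdf2a. It was 287.5 to 296.1 CPM in osythdf1a, 222 to 275 CPM in osythdf3a and 204 to 209 CPM in OE-OsYTHDF1A. The root loci were uneven in level. LOC_Os02g51110 and LOC_Os03g01700 had medians of 45.09 and 20.08 CPM over the libraries, and the remaining root loci at most 0.5417 CPM. The root locus LOC_Os02g02170 was at 0 in 38 of the 44 libraries. Of the 4 root loci tested, 3 rose and 1 fell both in osythdf1a and in osythdf2a, and 4 rose in osythdf4c. In DJ against NIP, 3 were higher and 1 lower. In RNAi-OsYTHDC1A, where OsNPR1 and WRKY45 were highest, the shoot sum was 14680 to 15870 CPM, and in osythdf1b, where the WRKY genes fell and the PR genes rose, 22650 to 23360 CPM. The part of organ makeup in the levels of the 10 genes was not tested.

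**Figure D4:**
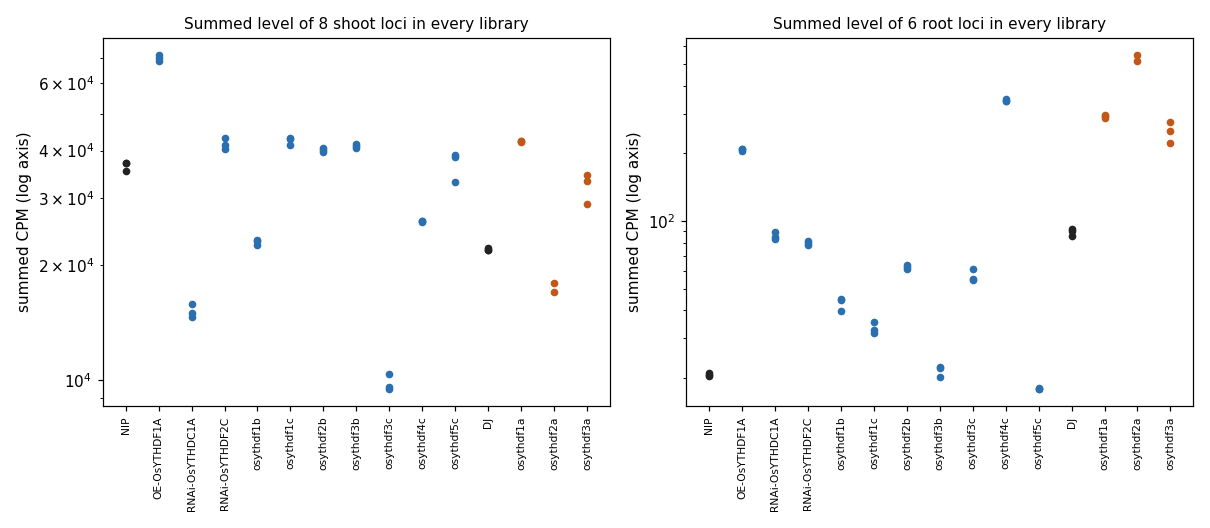
Summed CPM (log axes) of 8 shoot loci (left) and 6 root loci (right) in every library, by group; points are libraries, black the wild types, blue the NIP lines and orange the DJ lines. The shoot sum is lowest in osythdf3c and highest in OE-OsYTHDF1A, and the root sum is highest in osythdf2a and osythdf4c and lowest in osythdf5c.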

How the data were processed

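RNA of 44 seedling libraries was analysed. Per the labels' protocols, DNase-treated total RNA went into NEBNext Ultra paired-end libraries. The tools named, per the submitters' processing notes, are HISAT2 and featureCounts with build IRGSP-1.0. Versions and strand setting are not stated in the sources used here. How reads of near-identical or overlapping genes were assigned is therefore not known. The authors deposited whole-number counts per gene, not normalized, and FPKM. In both tables, 40 columns belong to no sample here and were left out.

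Counts were tested with edgeR 4.0.16 (R 4.3.3): TMM, filterByExpr, robust quasi-likelihood fits, two-sided, Benjamini-Hochberg adjustment over all genes tested. The 33 NIP libraries (27584 genes), the 11 DJ libraries (26925 genes) and all 44 (28833 genes, for DJ against NIP) were fitted separately. The biological coefficient of variation was 4.6%, 5.39% and 4.83%. The SE is the log2 fold change divided by the square root of F. The test was also run on simulated counts in which only few genes of a line were changed. That run does not bear on the scaling where a large share of genes is called. Alternatives were DESeq2 1.42.0, DESeq2 size factors, library totals, no filter, only 2 groups, a replicate block, a 2-fold minimum, limma 3.58.1 on log2 FPKM with a pseudocount of 1 or 0.1, and each library left out.

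The 10 genes and all lists were chosen with earlier results of these data known. All 10 are described. Other loci are named as the 2 with the highest r, or as picked after their values were seen. Every r and rho over groups was taken on group means of TMM-scaled log2(CPM + 0.5). Promoter motifs and protein sequences were not analysed here. P-values cover only the spread between these samples.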

Additional observations from a re-analysis of the deposited data

How the results depend on the processing

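Most calls did not depend on the processing. Of the 130 pairs of a line and a gene, 60 rose and 47 fell; the counts were 60 and 47 with DESeq2 size factors, 57 and 45 with DESeq2, 58 and 46 with no filter, 58 and 44 with library totals, 58 and 43 with limma at either pseudocount, and 55 and 45 with only the 2 groups compared, where 17 of the 140 values (the 130 pairs plus DJ against NIP) fell under the filter. With a 2-fold minimum the number of genes called fell from 7 to 4 in osythdf3c, 7 to 3 in osythdf1c and osythdf2a, 8 to 5 in RNAi-OsYTHDF2C and osythdf5c, 8 to 4 in osythdf2b, and 8 to 3 in OE-OsYTHDF1A and osythdf3a. The sign of 1 called value turned: WRKY71 in RNAi-OsYTHDC1A was -0.17 with TMM and 0.140 with library totals, 0.128 with limma on log2(FPKM + 1) and 0.141 on log2(FPKM + 0.1), none of them called; limma had no TMM either. Among values not called in any fit, the sign also differed between TMM and library totals for OsNPR1 in RNAi-OsYTHDF2C (-0.055 and 0.051), WRKY45 in osythdf2a (-0.051 and 0.049), WRKY76 in osythdf2b (-0.009 and 0.134) and WRKY62 in osythdf1a (0.092 and -0.153). Limma also ended the WRKY76 call between DJ and NIP (adjusted p = 0.085 and 0.055).

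Same-numbered libraries deviated together little (correlations of -0.467 to 0.342 over 13080 genes; in 1 of 14 comparisons all were over 0.1), so the numbers were not taken as pairs. With the replicate block, 59 rose and 47 fell, and the WRKY76 call in RNAi-OsYTHDF2C was lost (log2 fold change 0.625, adjusted p = 0.053).

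Leaving out 1 library at a time gave 829 values, of which 27 lost a call, 7 gained one and none turned a called sign. Levels of PR1a and PR1b are limited by depth, with 0 to 97 and 0 to 24 counts in a library.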
